A study of Mus musculus with 10 samples.

Results

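GABA is the main inhibitory transmitter of the hippocampus. It is made from glutamate by a pair of glutamate decarboxylases, encoded by Gad1 and Gad2, and is loaded into synaptic vesicles by the transporter that Slc32a1 encodes. The interneurons that release it arise in the embryonic ventral forebrain, where homeobox factors of the Dlx family and the LIM-homeobox factor Lhx6 direct their formation, and some of them hold the calcium-binding protein calretinin, encoded by Calb2. The genes described here are these 9 (Gad1, Gad2, Slc32a1, Lhx6, Dlx1, Dlx2, Dlx5, Dlx6 and Calb2), taken by symbol in GENCODE M21 from the 48709 genes of the count tables. All 9 were found, and all 9 passed the filter on low counts.

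Polyadenylated RNA was sequenced from primary hippocampal neurons of the mouse, kept in culture for 10 days. The tested cultures received tunicamycin at 2 ug/mL for 6 h (6 libraries), and the control cultures received DMSO, the solvent, for the same 6 h (4 libraries). Tunicamycin blocks N-linked glycosylation, so that new glycoproteins misfold in the endoplasmic reticulum (ER), and the comparison addresses how this stress alters the transcripts of such cultures. The labels give no genotype, strain, sex or age of the animals, and do not say whether libraries of 1 group stem from different cultures. The p-values therefore refer to variation among the sequenced libraries, part or all of which may be technical.

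Library totals were 21055289 to 29234887 counts, and the counts of the 9 genes lay between 55 and 7326 per library. Ddit3, the ER stress factor CHOP, was at 243.8 to 276 CPM (counts scaled to a common library total, TMM-adjusted) in tunicamycin libraries and at 32.8 to 36.0 CPM in DMSO libraries, so every library matched its label in this respect. The cultures also held other cells. Summed over 11 astrocyte markers the level was 2253 to 2554 CPM with tunicamycin and 3224 to 3767 CPM with DMSO, and summed over 12 pan-neuronal markers it was 6291 to 6686 CPM with tunicamycin and 7476 to 8047 CPM with DMSO. Summed over 12 excitatory markers it was 2922 to 3131 CPM with tunicamycin and 2979 to 3526 CPM with DMSO. Microglia markers summed to 11.9 to 14.5 CPM with tunicamycin and 16.5 to 20.4 CPM with DMSO (5 of 7 fell), and oligodendrocyte lineage markers to 122 to 147 CPM with tunicamycin and 191 to 244 CPM with DMSO (4 of 8 fell, 1 rose). No marker of these lists was at 0 in all libraries. Their part in the results below was not tested. In such bulk samples, fewer cells of a type and less RNA per cell cannot be told apart.

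Of the 9 genes, 5 fell with tunicamycin (Gad2, Slc32a1, Lhx6, Dlx1 and Calb2), 2 rose (Dlx2 and Dlx6), and 2 did not pass the test (Gad1 and Dlx5). Genes were tested by quasi-likelihood in edgeR, with p-values adjusted over 15660 genes and calls made at an adjusted p under 0.05. Over all genes tested 64.3% were called, 32.5% lower and 31.8% higher. The median log2 fold change was -0.12 for the 9 genes and -0.02 for all genes tested. All tunicamycin libraries lay above all DMSO libraries for 1 of the 9 genes (26.6% of all genes tested) and below them for 3 (24.5% of all genes tested). Together that is 4 of 9, where 51.1% of all genes tested did not overlap. By the edgeR calls, 55.6% of the 9 genes were lower, 22.2% higher and 77.8% either. With so few genes, none of these shares is read as a property of the 9 genes.

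**Figure D1:**
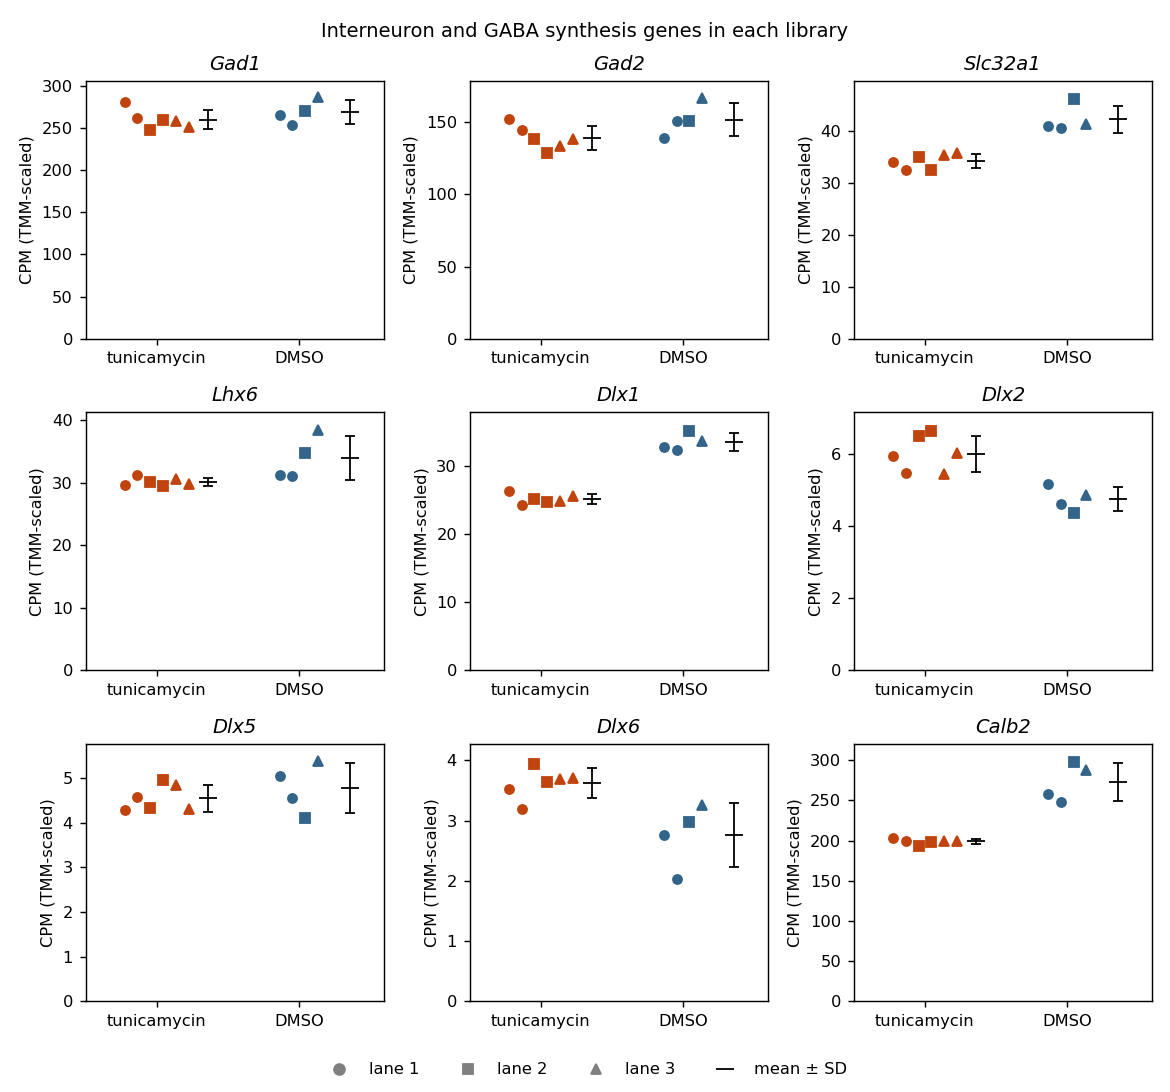
CPM (TMM-scaled, linear axes from 0) of the 9 genes in each of 6 tunicamycin and 4 DMSO libraries; point shapes give the sequencing lane and bars the mean ± SD. For Slc32a1, Dlx1 and Calb2 all tunicamycin points lie below all DMSO points, and for Dlx2 all lie above.

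Promoter windows were available from RefSeq (build GRCm38.p6) for 6 of the 9 genes, in 8 windows. The 250 bases before the start of Dlx2, which rose, and before a start of Lhx6, which fell, are shown. No annotated exon lies in them. Another Lhx6 window, chr2:36104061-36104310, also holds no annotated exon and 1 CCAAT match, and is not shown. Capitals mark the letters CCAAT on either strand.
Dlx2, chr2:71546755-71547004, minus strand: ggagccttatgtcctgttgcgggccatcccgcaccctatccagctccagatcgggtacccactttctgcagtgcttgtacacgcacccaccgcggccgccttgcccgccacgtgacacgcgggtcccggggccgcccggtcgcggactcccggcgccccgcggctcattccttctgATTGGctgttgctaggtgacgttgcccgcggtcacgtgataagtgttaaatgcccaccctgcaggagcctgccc
Lhx6, chr2:36105409-36105658, minus strand: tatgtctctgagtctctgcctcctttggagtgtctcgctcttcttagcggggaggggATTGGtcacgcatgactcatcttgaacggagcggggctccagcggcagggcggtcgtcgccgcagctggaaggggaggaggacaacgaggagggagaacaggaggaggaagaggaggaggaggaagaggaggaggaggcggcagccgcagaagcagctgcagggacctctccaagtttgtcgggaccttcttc
Each window shown holds 1 CCAAT match, and 33.8% of 32851 mouse promoter windows of the same length hold at least 1. Both strands of all 8 windows were also searched for the ER stress element ERSE, which includes CCAAT (0.113% of all windows), the unfolded protein response element TGACGTGG (0.563%), the amino acid response element TGATGNAAT (0.816%), the cyclic AMP response element TGACGTCA (1.55%) and the homeodomain core TAATTA (4.84%). None of these letters occurred in the windows of Dlx1, Dlx2, Gad1, Gad2, Lhx6 or Slc32a1, which says nothing about factors that bind elsewhere or to other letters.

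Among the genes of GABA synthesis and transport, the vesicular transporter fell and the decarboxylases changed little. Slc32a1 (ENSMUSG00000037771, chromosome 2, 158610767 to 158615748, plus strand, GRCm38) was at 32.6 CPM in the lowest, 34.6 CPM at the median and 35.8 CPM in the highest tunicamycin library, against 41.0, 40.6, 46.2 and 41.5 CPM in DMSO libraries 1 to 4. The groups did not overlap. The log2 fold change was -0.30 ± 0.05 (SE), a fall of 18.9% (edgeR adjusted p = 4.53e-06). Of its exonic bases 24.9% overlap an antisense gene, Gm14205, which had a count of 0 in every library. The kit does not mark strand, and the strand setting of the counting is not stated. How reads in this overlap were counted is therefore not known.

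Gad2 (ENSMUSG00000026787, chromosome 2, 22622205 to 22693874, plus strand) makes the decarboxylase concentrated at nerve terminals. It was at 128.4 CPM in the lowest, 138.2 CPM at the median and 152.2 CPM in the highest tunicamycin library, against 139.3, 150.6, 150.6 and 166.4 CPM in DMSO libraries 1 to 4. The groups overlapped, and the highest tunicamycin library, replicate 1, lay above 3 of the 4 DMSO libraries. The difference on the log2 scale was -0.12 ± 0.05 (SE), at an edgeR adjusted p of 0.0318. This call was the least firm of the 7. It was lost when DMSO replicate 2 (log2 -0.13), 3 (-0.12) or 4 (-0.07), or tunicamycin replicate 3 (-0.12), 4 (-0.10), 5 (-0.11) or 6 (-0.12) was left out, with edgeR adjusted p of 0.0532 to 0.174, and DESeq2 did not call it (adjusted p = 0.0608).

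Gad1 (ENSMUSG00000070880, chromosome 2, 70553072 to 70602014, plus strand), the decarboxylase spread through the whole cell, did not pass the test. It was at 247.7 CPM in the lowest, 259.0 CPM at the median and 281.4 CPM in the highest tunicamycin library, against 265.4, 253.1, 270.3 and 286.5 CPM in DMSO libraries 1 to 4. The difference on the log2 scale was -0.05 ± 0.04 (SE), at an edgeR adjusted p of 0.282, with a 95% interval of -0.12 to 0.03. Under upper-quartile scaling it was called lower (-0.16, edgeR adjusted p = 0.000457), but that scaling moved the median of all genes by -0.11, and relative to that median Gad1 stayed at -0.03.

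Gad1 and Slc32a1 were set against each other within a library, where scaling plays no part. There were 7.60 ± 0.527 counts of Gad1 for each count of Slc32a1 with tunicamycin (SD, n = 6) and 6.36 ± 0.444 with DMSO (SD, n = 4), without overlap (log2 difference 0.26, two-sided exact permutation p = 0.00952, 0.0127 adjusted over 4 ratios). In lane 3 alone the log2 difference was 0.05. The ratio of Gad1 to Gad2 was 1.87 ± 0.0887 with tunicamycin and 1.78 ± 0.0987 with DMSO, a difference that did not pass (two-sided exact permutation p = 0.148, adjusted p = 0.148).

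The Dlx genes lie in convergent pairs, Dlx1 with Dlx2 on chromosome 2 and Dlx6 with Dlx5 on chromosome 6, and members of a pair are known to share enhancers. In the first pair both genes changed, in opposite directions. Dlx1 (ENSMUSG00000041911, 71528113 to 71533981, plus strand) was at 24.4 CPM in the lowest, 25.0 CPM at the median and 26.4 CPM in the highest tunicamycin library, against 32.8, 32.3, 35.3 and 33.8 CPM in DMSO libraries 1 to 4. It fell by 24.8% (log2 -0.41 ± 0.04, SE; edgeR adjusted p = 3.25e-08), with a gap between the groups.

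Dlx2 (ENSMUSG00000023391, 71543408 to 71546754, minus strand), which acts with Dlx1 in interneuron formation, was at 5.44 CPM in the lowest, 6.00 CPM at the median and 6.65 CPM in the highest tunicamycin library, against 5.18, 4.62, 4.37 and 4.87 CPM in DMSO libraries 1 to 4. All tunicamycin libraries lay above all DMSO libraries. It rose 1.26-fold (log2 0.33 ± 0.09, SE; edgeR adjusted p = 0.00257). There were 4.21 ± 0.344 counts of Dlx1 for each of Dlx2 with tunicamycin (SD, n = 6) and 7.08 ± 0.720 with DMSO (SD, n = 4), again without overlap. The log2 difference of this ratio was -0.75 (two-sided exact permutation p = 0.00476, which no split of 210 can undercut, and 0.0127 adjusted over 4 ratios). Within lanes 1, 2 and 3 it was -0.58, -1.09 and -0.66.

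In the second pair Dlx6 rose while Dlx5 did not pass the test. Dlx6 (ENSMUSG00000029754, chromosome 6, 6863334 to 6868568, plus strand) was at 3.19 CPM in the lowest, 3.66 CPM at the median and 3.94 CPM in the highest tunicamycin library, against 2.76, 2.03, 2.98 and 3.26 CPM in DMSO libraries 1 to 4. Only DMSO replicate 4 reached into the tunicamycin range. The difference on the log2 scale was 0.41 ± 0.12 (SE), at an edgeR adjusted p of 0.00642, and without DMSO replicate 2, the lowest library, it was 0.27 and no longer called, with an edgeR adjusted p just above 0.05.

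Dlx5 (ENSMUSG00000029755, chromosome 6, 6877805 to 6882085, minus strand) was at 4.28 CPM in the lowest, 4.45 CPM at the median and 4.96 CPM in the highest tunicamycin library, against 5.05, 4.55, 4.09 and 5.38 CPM in DMSO libraries 1 to 4. The tunicamycin libraries lay within the DMSO range, and the difference on the log2 scale was -0.07 ± 0.10 (SE), at an edgeR adjusted p of 0.529, with a 95% interval of -0.26 to 0.12. The difference between both genes was tested by their ratio. There were 1.26 ± 0.128 counts of Dlx5 for each of Dlx6 with tunicamycin (SD, n = 6) and 1.77 ± 0.361 with DMSO (SD, n = 4), with slight overlap (log2 difference -0.47, two-sided exact permutation p = 0.00952, adjusted p = 0.0127). In lane 2 alone the log2 difference was -0.17.

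**Figure D2:**
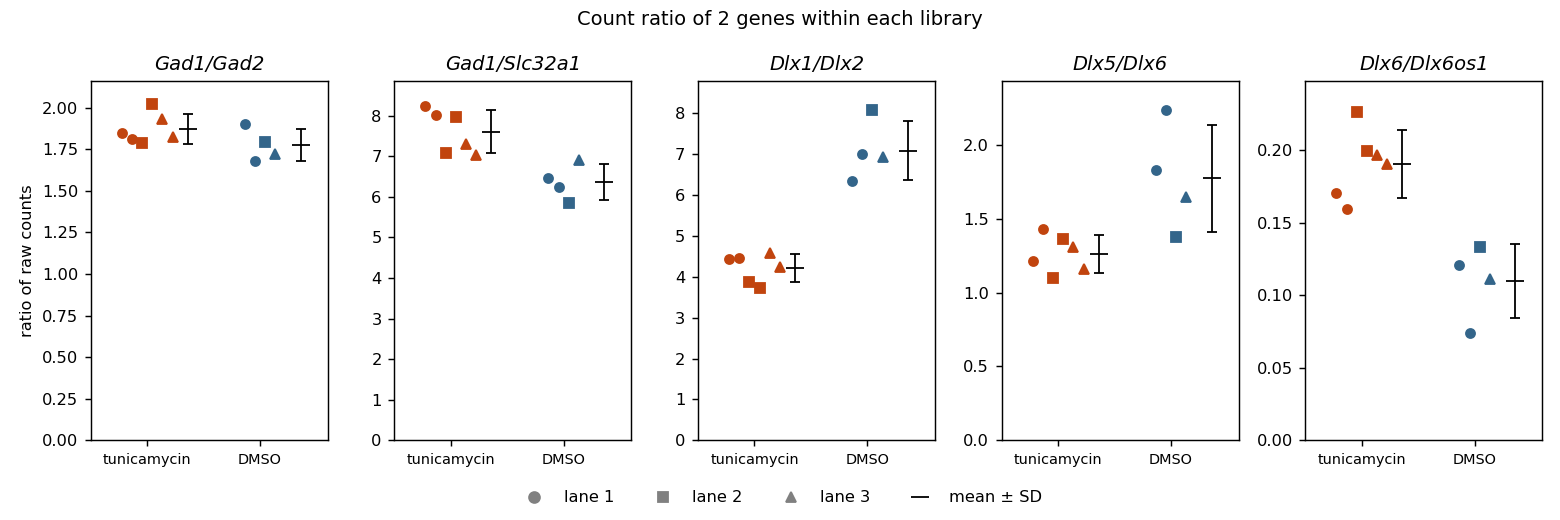
Ratio of raw counts of 2 genes within each library (linear axes from 0; shapes give the lane, bars the mean ± SD). The tunicamycin libraries lie at 3.72 to 4.57 for Dlx1 over Dlx2, below the DMSO libraries at 6.33 to 8.06, while the groups overlap for Gad1 over Gad2.

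Antisense transcripts run through these loci, and the kit does not mark strand. Dlx6os1, a long non-coding RNA that spans Dlx6 on the other strand, fell while Dlx6 rose. It was at 17.4 to 20.6 CPM with tunicamycin and 22.3 to 29.3 CPM with DMSO, without overlap (log2 -0.42 ± 0.07, SE; edgeR adjusted p = 4.4e-05). The exons of Dlx6 share no base with those of Dlx6os1 in GENCODE M21. They share 4.38% of their bases with Dlx6os2, which had 0 to 2 counts per library. There were 0.191 ± 0.0233 counts of Dlx6 for each of Dlx6os1 with tunicamycin (SD, n = 6) and 0.11 ± 0.0255 with DMSO (SD, n = 4), without overlap (two-sided exact permutation p = 0.00476, 0.0143 adjusted over 3 antisense ratios chosen after the values were seen).

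The other 2 antisense transcripts that could be tested fell as well. Dlx1as, which shares 335 exonic bases with Dlx1 (6.21% of those of Dlx1 and 20.6% of its own, so that reads from either strand there cannot be told apart), was at 2.17 ± 0.420 CPM with tunicamycin (SD, n = 6) and 2.99 ± 0.515 CPM with DMSO (SD, n = 4; log2 -0.44 ± 0.15, SE, edgeR adjusted p = 0.0124). The ratio of Dlx1 to Dlx1as was 11.9 ± 2.03 with tunicamycin and 11.5 ± 2.00 with DMSO and did not pass (two-sided exact permutation p = 0.733, adjusted p = 0.733). Gad1os was the lowest of them, at 0.520 ± 0.136 CPM with tunicamycin and 0.856 ± 0.211 CPM with DMSO (log2 -0.73 ± 0.24, SE, edgeR adjusted p = 0.0103). The ratio of Gad1 to Gad1os was 529 ± 139 with tunicamycin and 328 ± 77.2 with DMSO (two-sided exact permutation p = 0.0238, adjusted p = 0.0357), and this call was lost when DMSO replicate 1 (log2 difference 0.52), 2 (0.69) or 3 (0.71) or tunicamycin replicate 1 (0.63), 2 (0.70), 3 (0.69) or 6 (0.70) was left out. The direction of Dlx1 over Dlx1as turned without DMSO or tunicamycin replicate 4.

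**Figure D3:**
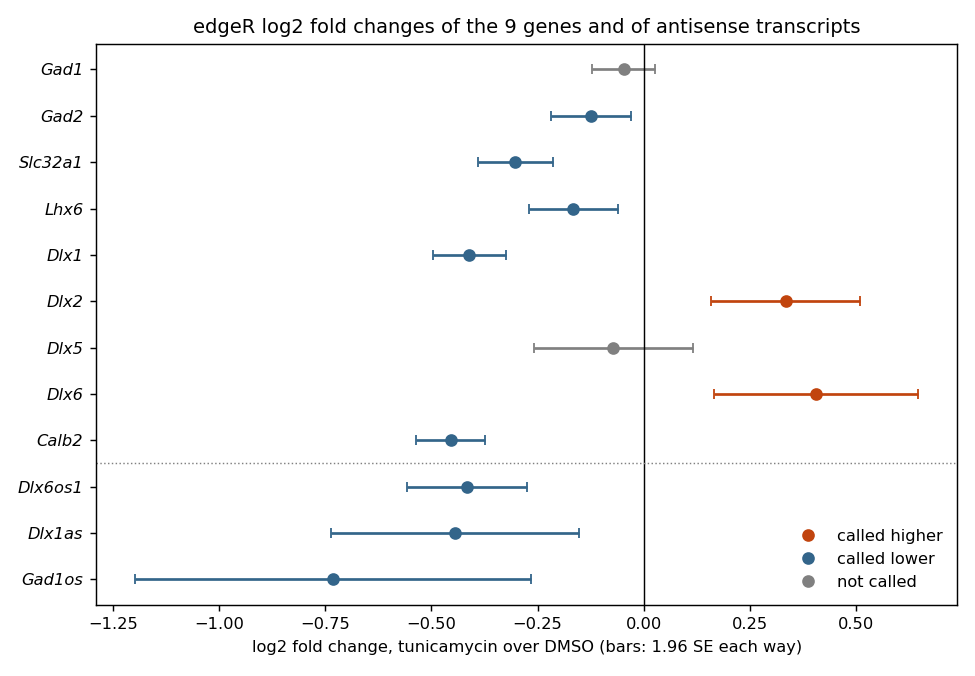
EdgeR log2 fold changes (tunicamycin over DMSO, bars the approximate 95% interval) of the 9 genes and, under the dotted line, of 3 antisense transcripts. Dlx2 and Dlx6 lie right of 0, whereas Dlx1, Calb2 and all 3 antisense transcripts lie left of it.

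Lhx6 (ENSMUSG00000026890, chromosome 2, 36081953 to 36105408, minus strand), which interneurons of the somatostatin and parvalbumin classes need for their maturation, fell slightly. It was at 29.5 CPM in the lowest, 29.9 CPM at the median and 31.3 CPM in the highest tunicamycin library, against 31.2, 31.1, 34.8 and 38.5 CPM in DMSO libraries 1 to 4. The tunicamycin libraries lay close together, while the DMSO libraries spread, and 2 of them touched the tunicamycin range. The difference on the log2 scale was -0.17 ± 0.05 (SE), at an edgeR adjusted p of 0.0095. Without DMSO replicate 4, the highest library, it was -0.10 and no longer called (edgeR adjusted p = 0.0957).

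Calb2 (ENSMUSG00000003657, chromosome 8, 110137502 to 110168210, minus strand) had the largest fall of the 9 genes. In the mouse hippocampus calretinin is found in a class of interneurons, and also in mossy cells and Cajal-Retzius cells, so its level is not that of interneurons alone. It was at 193.5 CPM in the lowest, 199.5 CPM at the median and 203.9 CPM in the highest tunicamycin library, against 258.0, 247.9, 297.6 and 287.9 CPM in DMSO libraries 1 to 4. The groups did not overlap, and the spread was 3.37 CPM (SD, n = 6) with tunicamycin and 23.7 CPM (SD, n = 4) with DMSO. Calb2 fell by 27.0% (log2 -0.45 ± 0.04, SE; edgeR adjusted p = 5.82e-09).

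Per length of exon, the order of the 9 genes was nearly the same in both groups. Calb2 was highest, at 114 ± 1.94 RPKM with tunicamycin (SD, n = 6) and 156.5 ± 13.6 RPKM with DMSO (SD, n = 4; RPKM is the CPM divided by the exon length in kilobases). Gad1 followed at 34.0 ± 1.53 RPKM with tunicamycin and 35.2 ± 1.81 RPKM with DMSO, Gad2 at 23.7 ± 1.42 and 25.8 ± 1.90 RPKM, and Slc32a1 at 12.2 ± 0.493 and 15.1 ± 0.937 RPKM, the tunicamycin value first in each case. The factors were lower. Lhx6 was at 6.27 ± 0.139 RPKM with tunicamycin and 7.05 ± 0.729 RPKM with DMSO, and Dlx1 at 4.67 ± 0.137 and 6.22 ± 0.240 RPKM.

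The 3 lowest genes were Dlx2, at 2.11 ± 0.178 RPKM with tunicamycin and 1.67 ± 0.121 RPKM with DMSO, Dlx5, at 2.01 ± 0.131 RPKM with tunicamycin and 2.11 ± 0.249 RPKM with DMSO, and Dlx6, at 1.52 ± 0.105 RPKM with tunicamycin and 1.16 ± 0.221 RPKM with DMSO. Dlx2 and Dlx5 changed places between the groups. Their ranges overlapped in each group, but within each of the 4 DMSO libraries Dlx5 lay above Dlx2, while the order was mixed among the tunicamycin libraries. The ranges of Lhx6 and Dlx1 also overlapped with DMSO, but not with tunicamycin.

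The libraries were spread over 3 sequencing lanes, named in the deposited files, with libraries of both groups in each. Lane 1 held 2 libraries of each group, and lanes 2 and 3 each held 2 tunicamycin libraries and 1 DMSO library. Fitted in lanes 1, 2 and 3 alone, the edgeR log2 fold change was -0.36, -0.49 and -0.41 for Dlx1, -0.32, -0.60 and -0.52 for Calb2, and -0.29, -0.45 and -0.21 for Slc32a1. With 1 DMSO library in lanes 2 and 3, these values are given without a test. For Dlx2 it was 0.23, 0.59 and 0.25, and for Dlx6 it was 0.50, 0.35 and 0.19. The 5 genes kept their direction in each lane.

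Gad2 and Lhx6, with the smallest falls, and Gad1, which was not called, were close to 0 in lane 1. In lanes 1, 2 and 3 the log2 fold change was 0.04, -0.17 and -0.28 for Gad2, -0.03, -0.22 and -0.34 for Lhx6, and 0.07, -0.09 and -0.16 for Gad1. Whether the lanes differ in the treatment difference was also tested in edgeR, a test chosen after the values were seen. It passed for none of the 9 genes, and for 31 of all 15660 genes tested. Among the 9 genes the lowest edgeR adjusted p was 0.218, for Calb2 (0.263 for Gad2, 0.408 for Lhx6 and 0.412 for Gad1). The unadjusted p was 0.00222, 0.00363, 0.0167 and 0.0174 for these 4 genes, and under 0.05 for 1390 of all 15660 genes tested. With 1 DMSO library each in lanes 2 and 3, this test cannot decide whether the lanes differ. With lane as a term Gad2 was at -0.12 and not called (edgeR adjusted p = 0.0531), and the other 6 calls held.

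**Figure D4:**
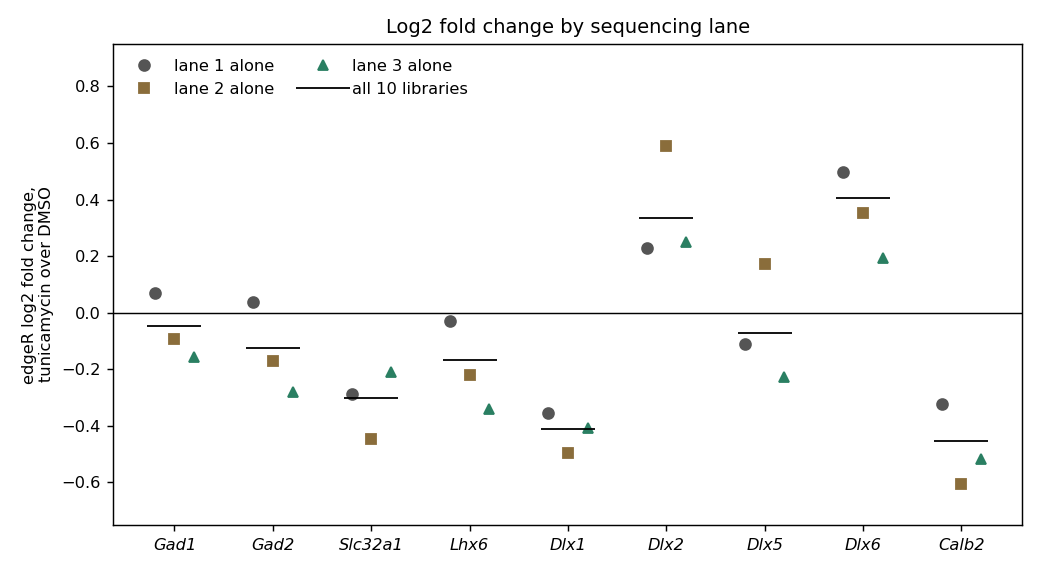
EdgeR log2 fold change (tunicamycin over DMSO) of each gene in lanes 1, 2 and 3 alone and in all 10 libraries (black lines). Dlx1, Calb2 and Slc32a1 lie below 0 in every lane and Dlx2 and Dlx6 above 0, while Gad1, Gad2 and Dlx5 lie on both sides.

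Since most pan-neuronal markers fell with treatment (10 of 12 called lower, none higher), each gene was also set against their summed counts within the library. Abundant transcripts weigh most in this sum. Mean CPM with tunicamycin and with DMSO was 2065 and 2367 for Map2, 1394 and 1696 for Stmn2, and 471.3 and 889.5 for Tubb3. Rbfox3 (log2 fold change 0.07) and Elavl4 (0.10) were not called. How far the values against this sum rest on single markers was not tested. This denominator moves every gene alike: scaled to it, all genes tested had a median of 0.26 on the log2 scale. Per 1000 counts of the 12 pan-neuronal markers, Dlx6 stood at 0.560 ± 0.0422 with tunicamycin (SD, n = 6) and 0.353 ± 0.0632 with DMSO (SD, n = 4), a log2 difference of 0.68. Dlx2 stood at 0.933 ± 0.0912 with tunicamycin and 0.610 ± 0.0600 with DMSO (0.61). Gad1 stood at 40.3 ± 2.13 with tunicamycin and 34.4 ± 1.49 with DMSO (0.23). All 3 were higher without overlap (two-sided exact permutation p = 0.00476 each, 0.0143 adjusted over 9 genes). In the edgeR fit scaled to the same markers, the difference from the median of all genes was 0.42 for Dlx6 and 0.35 for Dlx2, but -0.03 for Gad1, which was thus no higher than a typical gene.

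Dlx1 and Calb2 were lower even against this neuronal sum, which itself fell. Dlx1 stood at 3.90 ± 0.139 with tunicamycin and 4.29 ± 0.140 with DMSO (log2 difference -0.14), and Calb2 at 30.8 ± 0.662 with tunicamycin and 34.9 ± 2.38 with DMSO (-0.18; two-sided exact permutation p = 0.00952 each, adjusted p = 0.0171). Slc32a1 (-0.03) and Lhx6 (0.11) did not pass (adjusted exact permutation p = 0.519 and 0.0589). Gad2 (0.15) and Dlx5 (0.21) passed narrowly (adjusted exact permutation p = 0.0490 each), and each lost its call when most of the single libraries were left out.

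The sign for Gad1, Gad2, Lhx6 and Dlx5 thus differs from that relative to all counts, by a shift that is common to all genes. Against 12 excitatory neuron markers, of which 5 fell and 1 rose, the log2 difference was 0.11 for Gad1, 0.03 for Gad2, -0.01 for Lhx6 and 0.09 for Dlx5, none of which passed (adjusted exact permutation p = 0.121 to 0.91). It was -0.25 for Dlx1, -0.29 for Calb2, 0.49 for Dlx2 and 0.57 for Dlx6, all past the threshold (adjusted exact permutation p = 0.0107 each), and -0.15 for Slc32a1 (adjusted exact permutation p = 0.0429). Dlx1 and Calb2 were lower and Dlx2 and Dlx6 higher with tunicamycin under all 3 denominators.

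**Figure D5:**
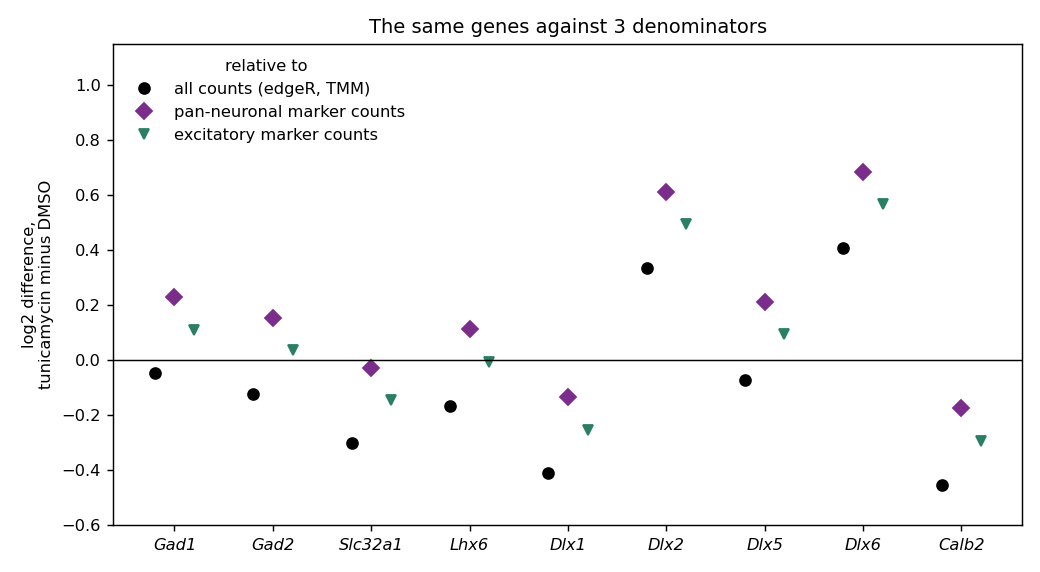
Log2 difference (tunicamycin minus DMSO) of the 9 genes relative to all counts (edgeR with TMM), to the summed counts of pan-neuronal markers and to those of excitatory markers. Dlx2 and Dlx6 lie above 0 and Dlx1, Slc32a1 and Calb2 below 0 for all 3, whereas Gad1, Gad2 and Dlx5 change side, and Lhx6 lies above 0 only for the pan-neuronal sum.

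Of 12 listed genes of GABA metabolism, transport and chloride balance, 10 were tested, of which 8 fell and 2 rose, where 32.5% of all genes tested fell and 31.8% rose. The median log2 fold change was -0.29 for these genes and -0.02 for all genes tested. Abat, the transaminase that breaks GABA down, fell to 178 ± 7.96 CPM with tunicamycin, against 229.5 ± 4.56 CPM with DMSO (log2 -0.36, edgeR adjusted p = 4.41e-09). The glial GABA transporter Slc6a11 fell (-0.42), and glutamine synthetase, Glul, an astrocyte enzyme, fell most (-1.18). All 11 astrocyte markers fell too, with a median of -0.63, and whether these falls are linked was not tested.

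The neuronal glutamine transporter Slc38a1, which supplies the precursor of glutamate, rose to 373 ± 8.07 CPM with tunicamycin, against 282 ± 7.21 CPM with DMSO (log2 0.40 ± 0.03, SE; edgeR adjusted p = 9.79e-11). Slc12a2, the chloride importer that favours depolarising GABA responses in young neurons, rose to 64.0 ± 2.90 CPM with tunicamycin, against 48.2 ± 2.74 CPM with DMSO (log2 0.41 ± 0.04, SE; edgeR adjusted p = 2.84e-08). For both genes all tunicamycin libraries lay above all DMSO libraries. Slc6a12 and Slc6a13 did not pass the filter.

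Among 17 tested interneuron transcription factors other than the 5 above, 2 rose, 7 fell and 8 did not pass, with a median of -0.06. That is 11.8% higher and 41.2% lower, where 31.8% of all genes tested rose and 32.5% fell. Sp8, a zinc-finger factor, rose to 12.5 ± 0.778 CPM with tunicamycin, against 8.05 ± 0.573 CPM with DMSO (log2 0.64 ± 0.07, SE, edgeR adjusted p = 5.7e-08). Npas3 rose as well (0.42). Maf (-0.52) and Satb1 (-0.31) fell. Dlx3 and Dlx4 did not pass the filter, with at most 1 and 5 counts in a library.

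Of 23 markers of interneuron classes, 2 rose (31.8% of all genes tested) and 11 fell (32.5% of all genes tested), with a median of -0.15 (-0.02 for all genes tested). Those with the smallest p among the falls were Cxcl14 (-0.69), Elfn1 (-0.53) and Kit (-0.23). The genes that rose were Crh (1.43), at 0.694 ± 0.230 CPM with tunicamycin and 0.261 ± 0.108 CPM with DMSO, and Kcnip1 (0.10, edgeR adjusted p = 0.0462). The cultures held somatostatin at 31.1 to 36.0 CPM with tunicamycin and 30.7 to 39.7 CPM with DMSO (Sst, log2 -0.03, edgeR adjusted p = 0.684), and almost no parvalbumin, a marker of mature basket cells (Pvalb, 0.339 ± 0.122 CPM with tunicamycin and 0.579 ± 0.0992 CPM with DMSO).

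After the group means were removed, the 9 genes varied together only in part from library to library. Over 10 libraries, Pearson's r of log2 CPM lay between -0.62 and 0.76 for the 36 pairs, with a median of 0.29. It was highest for Lhx6 with Calb2 (0.76) and Dlx1 with Calb2 (0.74), and was 0.64 for Gad1 with Gad2 but -0.05 for Gad1 with Slc32a1. The genes of a pair are measured in the same libraries and share their scaling, and these values are descriptions without a test. Among 13706 other genes at 1 CPM or more, those most like the mean of Gad1, Gad2 and Slc32a1 were Myh6 (r = 0.97), Zfp850 (0.95), Gas2l2, Hrk and G3bp2 (0.94 each). Picked as the highest of so many genes over 10 libraries, such values can arise by chance, and this was not tested. Slc32a1 itself varied little with Gad2 (r = 0.02), so this mean does not stand for 1 shared pattern.

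In the authors' deposited table, 7 of the 9 genes are listed, with log2 fold changes of -0.46 for Calb2, -0.42 for Dlx1, -0.31 for Slc32a1, -0.17 for Lhx6, -0.13 for Gad2, 0.33 for Dlx2 and 0.40 for Dlx6. Gad1 and Dlx5 are not in the authors' deposited table. For Gad2 the authors' adjusted p is 0.0165, whereas DESeq2 as run here did not call it. DESeq2 is among the tools that the authors name.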

How the data were processed

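The authors deposited whole-number counts per gene for each library, with no normalization. Libraries were made with TruSeq RNA v2 and read as 50 bp single ends, per the labels' protocols; that kit is known not to mark strand. Per the submitters' processing notes, the build was mm10 and the tools included STAR 2.5.2b, Subread 1.5.1 with featureCounts, FastQC 0.11.5 and DESeq2. The annotation and strand setting used in counting are not stated there. Also deposited by the authors were log2 fold changes and adjusted p-values; 20 columns of normalized values in those tables were not used.

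Names, positions and lengths came from GENCODE M21 (GRCm38, that is mm10), which matched 48349 of 48709 identifiers. Groups follow the labels. Counts were tested with edgeR 4.0.16 in R 4.3.3 (TMM, filterByExpr, robust quasi-likelihood, Benjamini-Hochberg); CPM uses TMM-scaled totals of tested genes. SE is the log2 fold change divided by the square root of F, and 95% intervals assume a normal distribution. Ratios were tested by exact permutation over 210 splits. Code was tested on simulated data. No library repeated another (chi-square per degree of freedom 2.18 to 10.5).

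The genes and lists were chosen with earlier results of these data known. Named genes of other lists are the 3 higher and 3 lower called genes with the smallest p (1 of them is not reported here); Sst, Pvalb, Slc6a12, Slc6a13, Dlx3 and Dlx4 were added after their values were seen. Alternatives were DESeq2 1.42.0, RLE and upper-quartile scaling, pan-neuronal marker totals, other filters, a lane term, single lanes, left-out libraries and a replicate block.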

Additional observations from a re-analysis of the deposited data

Results flagged for a closer look

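Among 44 sets of values (each of the 9 genes, 4 ratios and 9 values against pan-neuronal markers, in each group), 1 held a library far from the others. Slc32a1 stood at 46.2 CPM in DMSO replicate 3, while the other DMSO libraries lay between 40.6 and 41.5 CPM. Chance flags about 5% of such groups. Without that library the log2 fold change of Slc32a1 was -0.25, and it remained called (edgeR adjusted p = 6.48e-05).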

How the results depend on the processing

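The 2 rises and 5 falls were called again under RLE scaling, no filter and a filter at 1 CPM, and upper-quartile scaling added Gad1 to the falls; DESeq2 called 2 rises and 4 falls; 1 rise was called without DMSO replicate 2, and 3 to 5 falls were called when single libraries were left out (2 rises otherwise). Scaled to pan-neuronal marker totals, which moved the median of all genes by 0.27, 4 genes were called higher and 2 lower, and log2 fold changes turned to 0.23 for Gad1, 0.15 for Gad2, 0.11 for Lhx6 and 0.20 for Dlx5. In lane 1 alone 0 rises and 3 falls were called, in lane 2 alone 1 rise and 5 falls, and in lane 3 alone 0 rises and 6 falls, Gad1 among them; the lone DMSO library of lanes 2 and 3 is assumed to vary like the tunicamycin libraries; Gad1 (0.071) and Gad2 (0.036) turned in lane 1 and Dlx5 (0.17) in lane 2. The replicate numbers gave no sign of pairing the libraries (correlations of deviations -0.22 to 0.01, none best with its own number), which does not exclude pairing. On libraries 1 to 4 of each group the replicate block called 2 rises and 3 falls (8815 of all genes, against 9458 without the block).
The log2 difference of Gad1 over Slc32a1 was 0.36 in lane 2 and 0.053 in lane 3, that of Dlx1 over Dlx2 -0.58 in lane 1 and -1.09 in lane 2, and that of Dlx5 over Dlx6 -0.17 in lane 2. Left-out libraries gave 0.22 to 0.30, -0.80 to -0.68 and -0.59 to -0.35 for these, all called, and 0.05 to 0.11 for Gad1 over Gad2, never called.
Against pan-neuronal markers, lane 1 gave 0.32 for Gad1, 0.28 for Gad2, 0.22 for Lhx6 and -0.077 for Calb2. Lane 2 gave -0.12 for Slc32a1, 0.92 for Dlx2, 0.51 for Dlx5 and -0.28 for Calb2. Lane 3 gave 0.11 for Gad1, -0.011 for Gad2, 0.061 for Slc32a1, -0.070 for Lhx6, 0.042 for Dlx5, 0.46 for Dlx6 and -0.25 for Calb2. Left-out libraries gave 0.20 to 0.25 for Gad1, 0.12 to 0.18 for Gad2, -0.052 to 0.0062 for Slc32a1, 0.074 to 0.16 for Lhx6, -0.15 to -0.12 for Dlx1, 0.56 to 0.67 for Dlx2, 0.13 to 0.26 for Dlx5, 0.55 to 0.76 for Dlx6 and -0.22 to -0.14 for Calb2. The excitatory denominator gave 0.11 for Gad1, 0.035 for Gad2, -0.15 for Slc32a1, -0.0054 for Lhx6 and 0.094 for Dlx5.
By the longest transcript in place of all exons, Dlx2 and Dlx5 swapped to places 8 and 7 with tunicamycin. The cause of these shifts was not tested. Dlx1 over Dlx1as ranged over -0.023 to 0.17 with single libraries left out. Exact sign-flip tests of ratios paired over 4 numbers cannot go below p = 0.125. With 55 to 108 counts per library, Dlx6 is the least precisely counted gene.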
